A study of Mus musculus with 3 samples.

Results

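The 43 nuclear genes listed here encode the subunits of respiratory complexes II, III, IV and V and the electron carrier cytochrome c, together with Atpif1, the protein inhibitor of the ATP synthase. They were chosen by name and not by their values. A gene was read through probe sets whose annotation named that gene alone, older ATP synthase symbols included, and 42 of the 43 were found among 18193 genes on the arrays. Cox7b was not analysed here. All 42 belonged to the 11341 genes that were bright enough to be kept, that is, their brightest probe set lay in the upper 50% of mean log2 signal, at a signal of 76.9 or more. The filter used the mean of all arrays.

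Livers came from male C57BL/6J mice fed 1 of 3 diets for 15 weeks, starting at 6 weeks of age. HF+SFC mice received a high-fat diet (60% of energy as fat) containing 0.023% by weight of sodium ferrous citrate, an iron salt used as a supplement. HF mice received the same high-fat diet without the salt, and Control mice a diet with 10% of energy as fat. An age of 21 months in the labels does not match the feeding times. For each diet the cDNA of all mice was mixed, per the study's figure legends, and run on 1 array, so there were no replicates, no test of the diets could be run and p-values are absent. Differences between mice cannot be seen in such a pool.

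Electrons from NADH enter the respiratory chain at complex I, and those from succinate at complex II. Complex III passes them through cytochrome c to complex IV, which reduces oxygen, and the proton gradient built on the way drives ATP synthesis by complex V. Several of the subunits hold iron, as iron-sulphur clusters in Sdhb and Uqcrfs1 and as heme in Cyc1, Cycs and the membrane anchor formed by Sdhc and Sdhd, whereas complex V contains no iron. Hepatocytes are rich in mitochondria and burn fatty acids through this chain. The heart of complexes III, IV and V also includes subunits encoded by mitochondrial DNA, which were not analysed here.

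The members were among the brightest genes of the liver, with mean signals between 207 for Cox7c and 44394 for Uqcrb, and 40 of the 42 lay above the 95th percentile of all probe sets other than controls. Cox7c and Atpif1 did not. Signals and orders of the diets are those of the brightest probe set of a gene unless another is named. Signal levels of different probe sets depend on the probes and are not compared between genes. The 1190 kept genes at least as bright as the third dimmest member, Cox7a2l at a mean signal of 4334, are called the bright genes. They serve for comparison at high signal. Only a lower bound was set, so the bright genes are not matched to the members in brightness. In place of replicate error, the SD between log2 ratios of the same gene's probe sets was used. Over the bright genes with several such probe sets, 321 genes in all, it was 0.083 in HF+SFC over HF, 0.106 in HF over Control and 0.109 in HF+SFC over Control. Over the 18 members that could be measured in this way it was 0.053 in HF+SFC over HF, 0.070 in HF over Control and 0.067 in HF+SFC over Control. This SD includes differences between transcripts and leaves out the differences between mice, labelling reactions and arrays.

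Across the 3 arrays the members stayed close to each other. The highest of the 3 signals of a gene exceeded the lowest by a median of 1.095-fold, by less than 1.1-fold in 23 of 42 genes and by less than 1.2-fold in 38 of 42. The widest range belonged to Atpif1, at 1.61-fold. The plot of signals by array shows this as 3 nearly coinciding points in most rows.

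**Figure D1:**
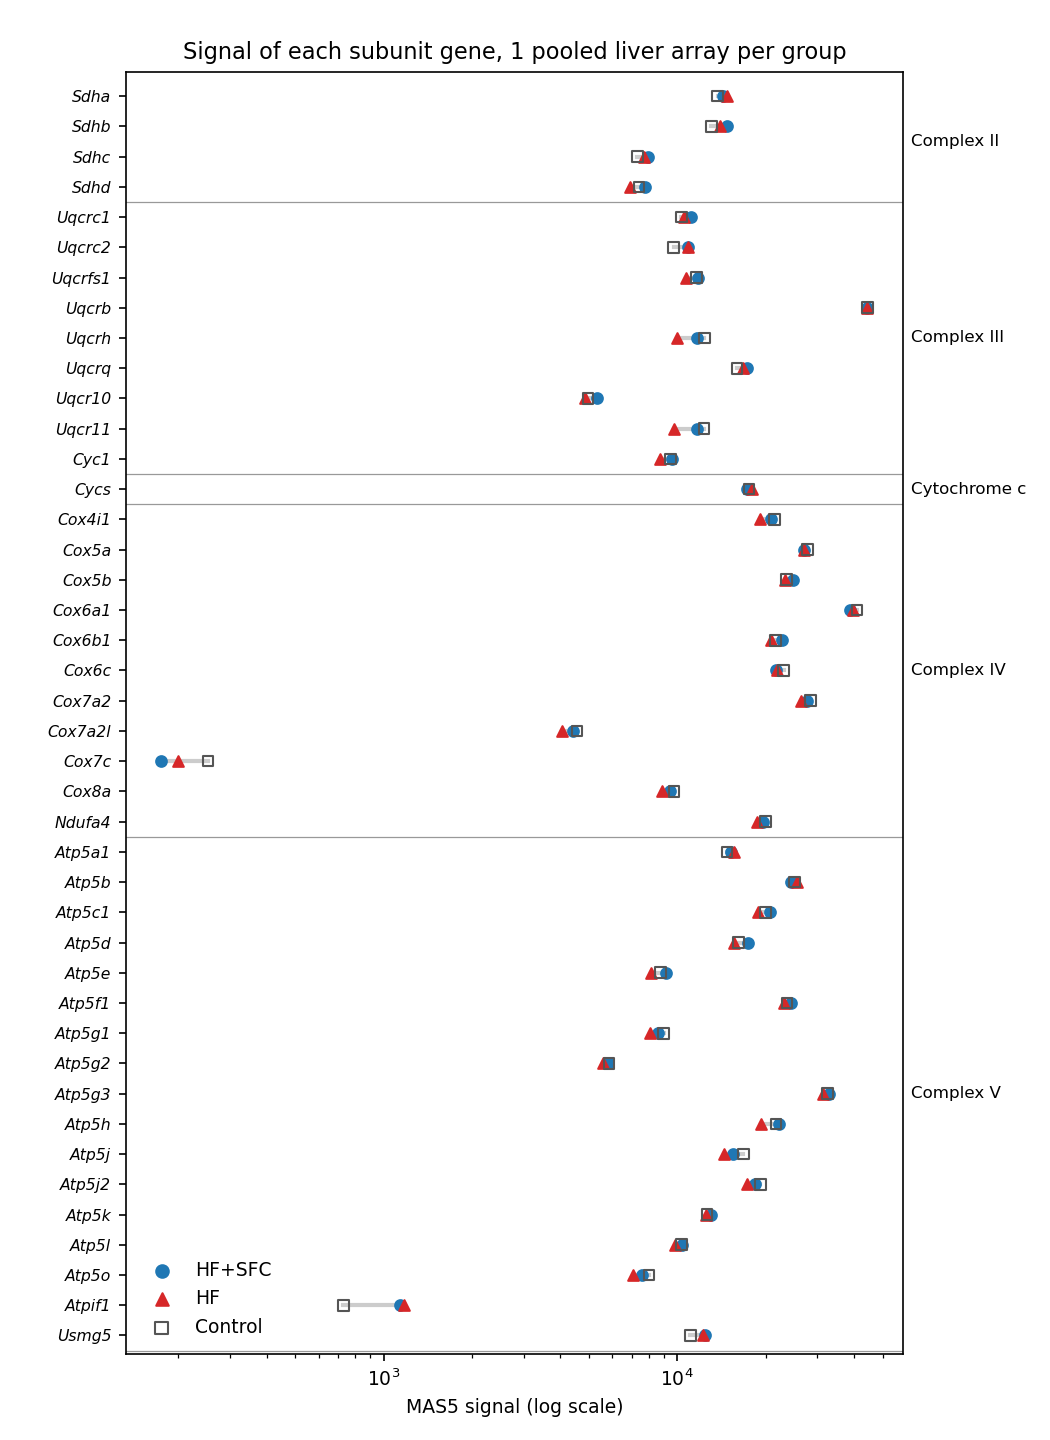
Signal of each of the 42 genes (horizontal, log scale, MAS5 intensity) on the HF+SFC, HF and Control arrays, 1 point per array, grouped by complex. Most genes sit above 4334 with their 3 points almost on top of each other, and only Atpif1 and Cox7c lie far to the left with visibly separate points.

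In HF+SFC over HF, which asks what the iron salt did on the high-fat diet, no member reached 1.5-fold, the threshold used in the study. Of all kept genes 2.88% were higher and 5.33% lower by 1.5-fold, and of the bright genes 0.252% in each direction. The 0 of 42 is thus close to the background of the bright genes. The median log2 ratio of the members was 0.08, that is, 1.06-fold, with 33 of 42 members above 0. Among all kept genes the median was -0.01 and 48.8% lay above 0, whereas among the bright genes the median was 0.05 and 68.2% lay above 0. The small upward shift was thus shared with bright genes in general, and after each array pair was centred on the bright genes the median of the members was 0.03 with 28 of 42 above 0. It was 0.03 with 26 above 0 under quantile normalization and 0.03 with 28 above 0 after lowess. The members spread less than the bright genes did, with an SD of 0.0755 over the 40 bright members and 0.142 over all bright genes. These sets were not matched in signal above the lower bound. Beyond 2 SD between probe sets, a log2 ratio of 0.166, were 4 members upward, Uqcr11, Uqcrh, Atp5h and Atp5e, and 1 downward, Cox7c. The same limit was passed by 15.9% of the bright genes upward and 5.8% downward. Cox7c is dimmer than the bright genes from which the limit comes. Its log2 ratio of -0.19 is smaller in size than the SD between probe sets over all kept genes, 0.328.

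In HF over Control, the comparison for the high-fat diet itself, 1 of 42 members was higher by 1.5-fold, Atpif1, and none was lower. Among all kept genes 11.3% were higher and 5.84% lower, and among the bright genes 4.12% and 5.04%. The median log2 ratio of the members was -0.06 with 11 of 42 above 0, but it was 0.03 with 23 above 0 under quantile normalization, 0.01 with 23 above 0 after lowess and 0.01 with 22 above 0 after centring on the bright genes, so the members have no settled direction. All kept genes had 53.1% above 0, and the bright genes a median of -0.07 with 38.3% above 0. Their SD was 0.387, against 0.112 over the 40 bright members. Within 2 SD between probe sets, a log2 ratio of 0.213 in size, lay 37 of 42 members, or 88.1%, and 57.9% of the bright genes. The 5 beyond it were Atpif1 upward, against 16.1% of bright genes, and Uqcr11, Cox7c, Uqcrh and Atp5j downward, against 26.1%. Under quantile normalization Atp5j lay within it, at -0.13. Atpif1 and Cox7c are dimmer than the bright genes from which the limit comes. Over all kept genes the SD between probe sets was 0.354, and their log2 ratios, 0.69 and -0.34, lie within 2 such SD.

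In HF+SFC over Control, 1 of 42 members was higher by 1.5-fold, again Atpif1, where 9.2% of all kept genes and 4.54% of the bright genes were higher. None was lower, against 6.88% and 4.2%. The median of the members was 0.01 with 23 of 42 above 0, against 52.1% above 0 of all kept genes and a median of -0.02 with 46.2% above 0 of the bright genes. Members above 0 numbered 31 under quantile normalization, 30 after lowess and 26 after centring on the bright genes. Leaving out probe sets with an ambiguous suffix turned the sign of the members' median, at -0.00. The 3 comparisons share arrays, HF being in both of the first 2, so a low or high HF signal of a gene enters them with opposite sign and they are no independent evidence of each other.

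**Figure D2:**
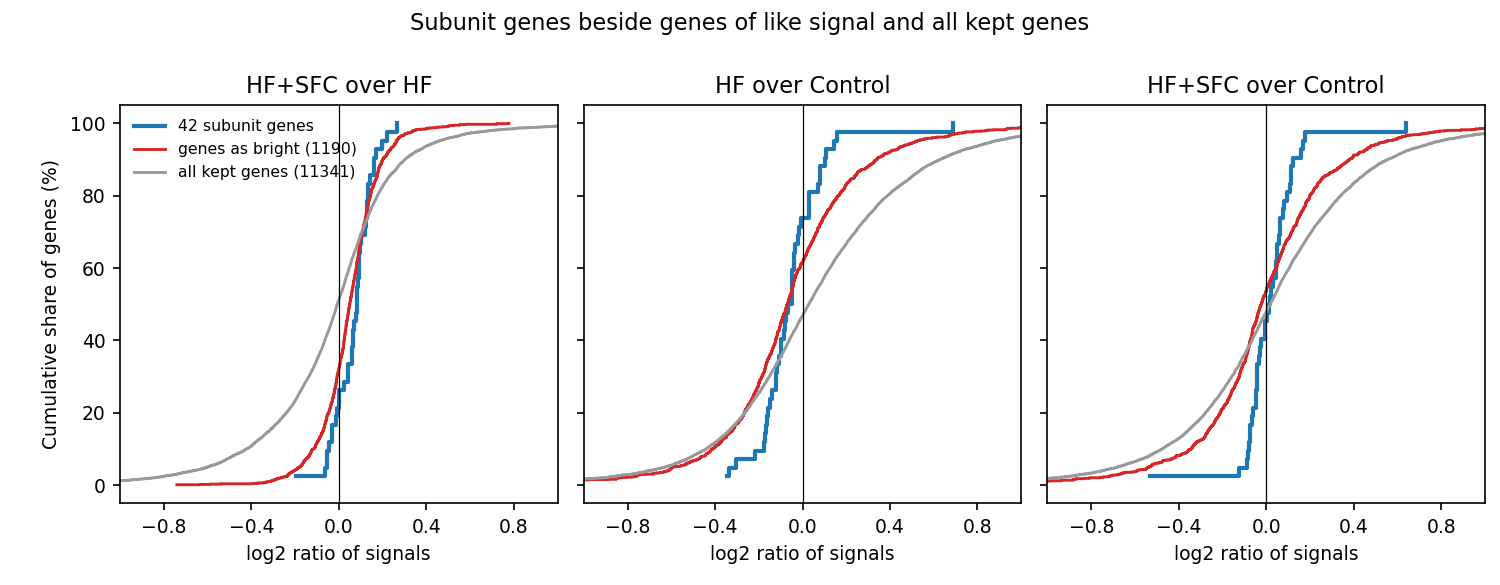
Cumulative share of genes (vertical, percent) at or below each log2 ratio (horizontal) for the 42 members, the 1190 bright genes and all 11341 kept genes, 1 panel per comparison. The curve of the members rises over a narrower range than that of all kept genes in each panel and crosses 50% at 0.08 in HF+SFC over HF, at -0.06 in HF over Control and at 0.01 in HF+SFC over Control.

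Complex II, succinate dehydrogenase, links the citric acid cycle to the chain. Its median log2 ratio was 0.06 in HF+SFC over HF, with 3 of 4 subunits above 0. The median of HF over Control was 0.09, also with 3 of 4 above 0. Of the bright genes 68.2% lay above 0 in HF+SFC over HF and 38.3% in HF over Control. Sdha, the flavoprotein that oxidises succinate, had signals of 14323 in HF+SFC, 14763 in HF and 13712 in Control. Sdhb, the iron-sulphur subunit, had 14793 in HF+SFC, 14022 in HF and 13064 in Control. Both were lowest in Control, also by the second bright probe set of Sdha, which gave 0.06 in HF+SFC over HF where the brightest gave -0.04. The log2 ratio of HF+SFC over Control was 0.06 for Sdha and 0.18 for Sdhb, under the limit of 0.218 that 2 SD between probe sets sets there. Sdhc and Sdhd form the membrane anchor that binds heme and ubiquinone. Sdhc signals were 7954 in HF+SFC, 7724 in HF and 7305 in Control, and a second probe set of it gave log2 ratios of 0.10 in HF+SFC over HF and 0.18 in HF over Control. Sdhd signals were 7734 in HF+SFC, 6913 in HF and 7407 in Control, so that it was the only subunit of complex II with its lowest signal in HF. Its log2 ratio of HF+SFC over HF was 0.16 by this probe set and 0.08 by its second one.

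Promoters of the members were read from RefSeq (GRCm38.p6, 250 bases before to 50 after the start of a gene), where 35 of the 43 members had an entry. Nuclear respiratory factor 1 (NRF1) and ETS-type factors such as NRF2 (GABP) are known to act at promoters of respiratory genes. A gene counted for a motif if any of its windows held it. The NRF1 core GCGCATGC followed by GC, which makes the full palindrome, was present in 4 of the 35 members (11.4%). It was present in 1.07% of all 27025 genes with a window and in 2.34% of the 9191 kept genes among them. The core alone, which every full match also holds, was present in 8 members (22.9%), against 3.05% of all genes and 5.86% of kept genes. The 8 members were Atp5g2, Atp5k, Atp5l, Cox6a1, Cycs, Sdhb, Uqcr11 and Uqcrc1. The ETS motif CCGGAAG was found in 13 members (37.1%), 9.93% of all genes and 19.7% of kept genes. Both strands were searched. Matches are a description of the letters and show no binding. The SP1 motif GGGCGG was found in 14 members (40.0%), against 38.2% of all genes and 67.1% of kept genes. It was thus less frequent in the members than in kept genes. CCAAT was found in 18 members (51.4%), 41.1% of all genes and 42.5% of kept genes. The estrogen-related receptor motif TCAAGGTCA was found in 2 members (5.71%), 0.466% of all genes and 0.359% of kept genes. For YY1, AAGATGGC was found in 3 members (8.57%), 3.19% of all genes and 5.32% of kept genes. TATAAA was found in 2 members (5.71%), 15.7% of all genes and 9.47% of kept genes. Sdhb and Cycs are shown first, being iron-binding subunits with an NRF1 core, from 100 bases before to 10 after the start and 5′ to 3′, with the match to the core in capitals. The windows are chr4:140961171-140961280 on the plus strand for Sdhb and chr6:50566560-50566669 on the minus strand for Cycs.
Sdhb: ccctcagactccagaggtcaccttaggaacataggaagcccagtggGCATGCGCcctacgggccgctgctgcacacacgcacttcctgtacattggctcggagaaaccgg
Cycs: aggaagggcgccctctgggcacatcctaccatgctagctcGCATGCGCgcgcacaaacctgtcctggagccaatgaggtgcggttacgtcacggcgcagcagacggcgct
Sdhb and Cycs had log2 ratios of HF+SFC over HF of 0.08 and -0.05, both within 2 SD between probe sets. The relation of the motif to these ratios was not tested.

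Complex III, the cytochrome bc1 complex, had a median log2 ratio of 0.13 in HF+SFC over HF with 9 of 9 subunits above 0. Of the bright genes 68.2% lay above 0 there. The count of 9 depended on the scaling. After lowess the median was 0.087, and Uqcrc2 and Uqcrq lay below 0, at -0.05 and -0.01. Under quantile normalization the median was 0.055, with Uqcrc2 at -0.08 and Uqcrq just below 0. In HF over Control the median of complex III was -0.03 with 3 of 9 above 0, against 38.3% of the bright genes. The sign of this median turned under quantile normalization (0.01), lowess (0.01) and centring on the bright genes (0.04). Without probe sets of ambiguous suffix it was -0.236, the lowest of all settings. The core proteins Uqcrc1 and Uqcrc2, which face the matrix and carry no redox group, had their lowest signals in Control. Uqcrc1 read 11151 in HF+SFC, 10538 in HF and 10317 in Control. Uqcrc2 read 10849 in HF+SFC, 10842 in HF and 9729 in Control. The redox subunits behaved otherwise, with the lowest signal in HF. Uqcrfs1, the Rieske iron-sulphur protein, had 11724 in HF+SFC, 10683 in HF and 11617 in Control. Cyc1, cytochrome c1, had 9599 in HF+SFC, 8700.0 in HF and 9462 in Control. Their log2 ratios of HF+SFC over HF were 0.13 and 0.14 and those of HF over Control -0.12 and -0.12, all within 2 SD between probe sets.

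Of the small subunits of complex III, Uqcr11 and Uqcrh changed most, although neither reached 1.5-fold. Uqcr11, the smallest subunit of the complex, had signals of 11681 in HF+SFC, 9716 in HF and 12336 in Control, the lowest in HF. Its log2 ratio was 0.27 in HF+SFC over HF, the 95.3rd percentile of the bright genes, and -0.34 in HF over Control, the 13.9th percentile. Only 1 probe set read it. Uqcrh, the hinge protein between cytochrome c1 and cytochrome c, had 11640.4 in HF+SFC, 9992 in HF and 12353 in Control. Its log2 ratios were 0.22 in HF+SFC over HF and -0.31 in HF over Control, and its second probe set gave 0.16 and -0.24, the same pattern. Uqcr10, a small membrane subunit, was read by 3 kept probe sets, whose log2 ratios of HF+SFC over HF were 0.13, 0.10 and 0.27 and those of HF over Control -0.03, -0.24 and -0.43. Uqcrq, which lies near the ubiquinone site, had 17278 in HF+SFC, 16790.5 in HF and 15979.5 in Control. Uqcrb, also part of the ubiquinone-binding region, had 44375 in HF+SFC, 44307 in HF and 44501 in Control. The promoter stretches of Uqcr11 and Uqcrh are given because these genes had the highest log2 ratios of HF+SFC over HF. They cover chr10:80406812-80406921 and chr4:116075061-116075170, both on the minus strand, from 100 bases before to 10 after the start, with NRF1 core and ETS matches in capitals.
Uqcr11: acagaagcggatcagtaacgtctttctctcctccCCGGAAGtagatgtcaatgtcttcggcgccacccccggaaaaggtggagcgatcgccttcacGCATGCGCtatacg
Uqcrh: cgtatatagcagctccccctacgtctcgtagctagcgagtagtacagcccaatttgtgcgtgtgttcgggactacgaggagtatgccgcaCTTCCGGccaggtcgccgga
Uqcr11 holds a match to each motif, and Uqcrh an ETS match on the opposite strand.

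Cytochrome c itself, Cycs, which shuttles electrons between complexes III and IV, had 17286 in HF+SFC, 17942 in HF and 17552 in Control. Its log2 ratios were -0.05 in HF+SFC over HF and 0.03 in HF over Control, and its other kept probe sets of high signal gave -0.02 and 0.01 in HF+SFC over HF.

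Complex IV, cytochrome c oxidase, had a median log2 ratio of 0.07 in HF+SFC over HF. Above 0 were 7 of 11 subunits, against 68.2% of the bright genes. The median of HF over Control was -0.10 with 0 of 11 above 0, against 38.3% of the bright genes and 53.1% of all kept genes. This count and the sign of the median depended on the scaling. Under quantile normalization the median was 0.02, and Cox5b and Cox6b1 lay above 0, at 0.07 and 0.06. Set against Control, HF+SFC gave a median of -0.04 with 2 of 11 above 0, against 46.2% of the bright genes. The median was 0.00 under quantile normalization. Cox4i1, which binds ATP and tunes the enzyme, had 20777 in HF+SFC, 19099.7 in HF and 21396 in Control. Cox5a had 26905 in HF+SFC, 27012 in HF and 27708 in Control. Its other 2 kept probe sets were lowest in HF, with log2 ratios of HF+SFC over HF of 0.10 and 0.01. Cox5b, a zinc-binding subunit on the matrix side, had 24814 in HF+SFC, 23212 in HF and 23562 in Control. The outer subunits gave a mixed order. Cox6b1, which sits on the intermembrane side near the cytochrome c site, had 22806 in HF+SFC, 20872 in HF and 21576 in Control, and both of its probe sets gave a log2 ratio of 0.13 in HF+SFC over HF. Cox6a1 had 38861 in HF+SFC, 39681 in HF and 40962 in Control. Cox6c had 21646 in HF+SFC, 21823 in HF and 23010.1 in Control. By these probe sets both were lowest in HF+SFC and highest in Control, but their second probe sets did not keep that order. The second probe set of Cox6a1 had 18742.5 in HF+SFC, 17879 in HF and 18295 in Control. That of Cox6c had 14377 in HF+SFC, 15128 in HF and 12726 in Control, with a log2 ratio of HF over Control of 0.25, beyond 2 SD between probe sets and opposite in sign to the -0.08 of the brightest.

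Further small membrane subunits of complex IV were likewise close between the diets. Cox7a2, the form of subunit VIIa found in liver, had 27574 in HF+SFC, 26381 in HF and 28437 in Control. Cox7a2l, which helps to join complexes III and IV into supercomplexes, had 4411 in HF+SFC, 4046 in HF and 4560.0 in Control, and its 3 kept probe sets gave log2 ratios of 0.12, 0.18 and 0.21 in HF+SFC over HF. Cox8a had 9428 in HF+SFC, 8838 in HF and 9740.0 in Control. Ndufa4, first assigned to complex I and now counted with complex IV, had 19624 in HF+SFC, 18692 in HF and 20000.4 in Control. All 4 genes had their lowest signal in HF and their highest in Control. Cox7c was read only by dim probe sets, the kept one at 175 in HF+SFC, 200 in HF and 252 in Control. The log2 ratios were -0.19 in HF+SFC over HF and -0.34 in HF over Control. Over all kept genes, most of them dimmer than the other members, the SD between probe sets was 0.328 and 0.354 in these comparisons. The second, still dimmer probe set of Cox7c gave -0.33 and 0.23.

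**Figure D3:**
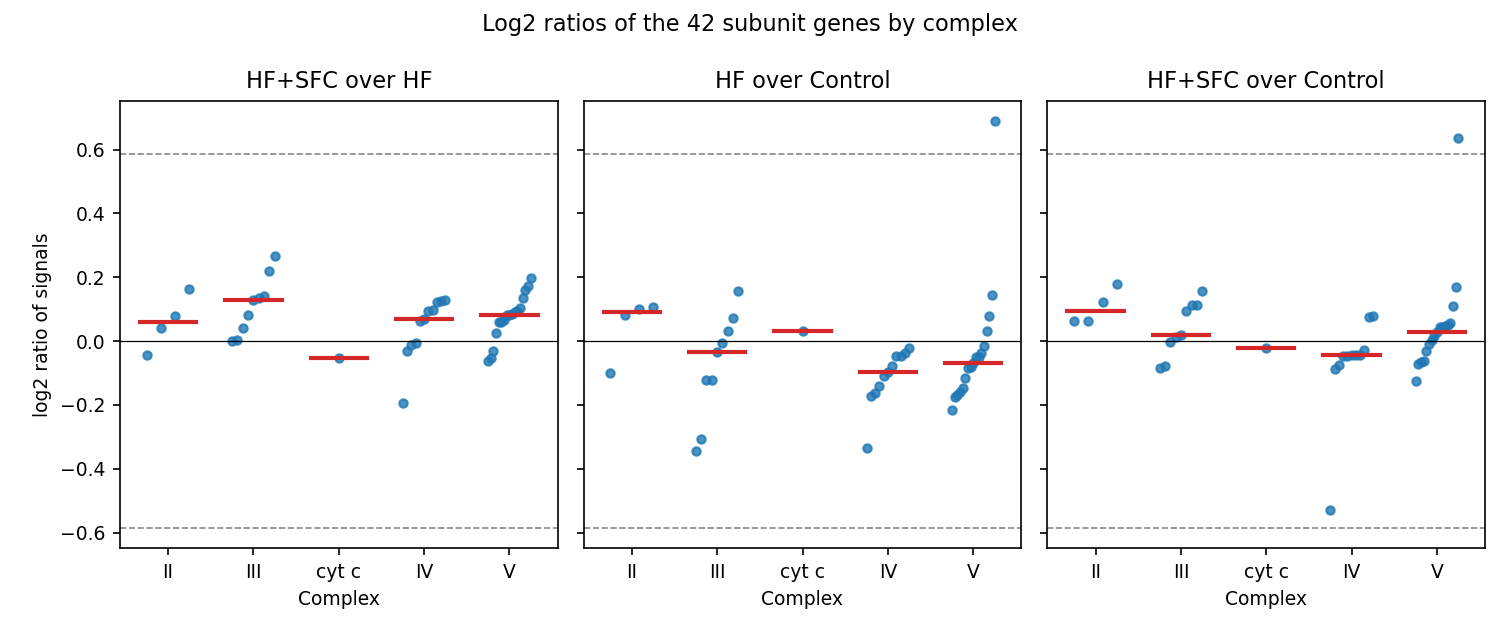
Log2 ratio (vertical) of each of the 42 genes, by complex (horizontal), with 1 panel each for HF+SFC over HF, HF over Control and HF+SFC over Control. Bars mark the median of each complex and dashed lines mark 1.5-fold. Every point lies between the dashed lines except Atpif1, at 0.69 in HF over Control and 0.64 in HF+SFC over Control.

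Complex V, the ATP synthase, turns proton flow through a ring in the membrane into rotation of a stalk inside the F1 head, where ATP is made. The median log2 ratio of its 17 genes was 0.08 in HF+SFC over HF, with 14 above 0, against 68.2% of the bright genes. In HF over Control the median was -0.07 with 4 above 0, against 38.3%. This median came to 0.00 after lowess and to 0.00 after centring on the bright genes, both just above 0. In HF+SFC over Control the median was 0.03 with 11 above 0, against 46.2%. It was -0.00 without probe sets of ambiguous suffix.

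In the F1 head, the catalytic beta subunit Atp5b and the alpha subunit Atp5a1 were highest in HF by their brightest probe sets. The parts of the rotor were lowest there by theirs. In HF over Control the log2 ratios of these 5 genes ran from -0.12 to 0.08, within the limit of 0.213. Atp5b read 24485 in HF+SFC, 25582 in HF and 25039.6 in Control. Atp5a1 read 15282 in HF+SFC, 15602 in HF and 14783 in Control. The gamma subunit Atp5c1, the rotating shaft, had 20652 in HF+SFC, 18801 in HF and 19935 in Control. Its log2 ratio of HF over Control was -0.08, and 0 under quantile normalization. Atp5d and Atp5e, the delta and epsilon subunits at the foot of the shaft, gave log2 ratios of HF+SFC over HF of 0.16 and 0.17. Signals of Atp5d were 17459.5 in HF+SFC, 15636 in HF and 16184 in Control. Those of Atp5e were 9136 in HF+SFC, 8108 in HF and 8786 in Control. A second probe set of Atp5d gave -0.03, so its ratio rests on the brighter one, and Atp5e was read by 1 probe set only.

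The peripheral stalk holds the head still while the rotor turns. By their brightest probe sets all 4 of its genes had the lowest signal in HF, with median log2 ratios of 0.10 in HF+SFC over HF and -0.17 in HF over Control. Atp5h, subunit d, had 22138 in HF+SFC, 19299 in HF and 21689 in Control. This gave 0.20 in HF+SFC over HF, beyond 2 SD between probe sets, but 0.12 under quantile normalization, which is within it. The second probe set of Atp5h gave 0.09. Atp5j, coupling factor 6, had 15416 in HF+SFC, 14471 in HF and 16796 in Control. Its log2 ratio of HF over Control of -0.215 was just beyond the limit of 0.213, and was -0.13 under quantile normalization. Atp5o, the oligomycin sensitivity conferring protein that caps the head, had 7605 in HF+SFC, 7083 in HF and 8001 in Control, but its second probe set gave 0.03 in HF+SFC over HF and 0.01 in HF over Control. Atp5f1, subunit b, had 24391 in HF+SFC, 23034 in HF and 23651 in Control, but its second probe set was lowest in Control, at 10050.3 in HF+SFC, 9765 in HF and 9412 in Control.

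The c subunits that form the proton-carrying ring are made from 3 genes, whose mature proteins are identical. Atp5g1 had 8591 in HF+SFC, 8051 in HF and 8983 in Control. Atp5g2 had 5820.3 in HF+SFC, 5584 in HF and 5851 in Control. Atp5g3 had 32779 in HF+SFC, 31341 in HF and 32415 in Control. All 3 were lowest in HF, by log2 ratios of -0.05 to -0.16 against Control, which lie within 2 SD between probe sets, and Atp5g2 and Atp5g3 turned above 0 after centring on the bright genes. The remaining membrane subunits hold dimers of the enzyme together. Atp5j2 had 18383 in HF+SFC, 17315 in HF and 19181 in Control. Atp5k had 12998 in HF+SFC, 12476 in HF and 12608 in Control. Atp5l had 10361 in HF+SFC, 9786 in HF and 10344 in Control. These 3 had their lowest signal in HF as well. Usmg5, a small subunit also known as DAPIT, had 12455 in HF+SFC, 12243 in HF and 11075 in Control, lowest in Control.

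Atpif1 was the one member beyond 1.5-fold. Its protein binds the F1 head and blocks ATP hydrolysis when the membrane potential collapses. The signals were 1133 in HF+SFC, 1174 in HF and 728 in Control. HF+SFC and HF were thus close to each other, at a log2 ratio of -0.05, and both stood above Control, at 0.64 and 0.69, or 1.56-fold and 1.61-fold. Among the bright genes these ratios to Control would lie at the 96.5th and 97.0th percentiles, although Atpif1 is itself dimmer than those genes. Over all kept genes the SD between probe sets was 0.362 in HF+SFC over Control and 0.354 in HF over Control, so both ratios lie within 2 such SD. Its other 2 probe sets were too dim to be kept and did not give this pattern, with 46.3 and 34.9 in HF+SFC, 160 and 51.5 in HF, and 45.7 and 34.8 in Control. The high HF signal appeared in all 3 probe sets, the high HF+SFC signal in the bright one only. Promoter stretches follow for Atpif1, and for Atp5g2 and Atp5k, which were picked as the 2 genes of complex V with a full NRF1 motif. That motif was present in only 4 of the 35 members with a window, so Atpif1 shares its absence with most members. They run from 100 bases before to 10 after the start at chr4:132535405-132535514, chr15:102671038-102671147 and chr5:108434390-108434499, all on the minus strand, with the full NRF1 motif in capitals.
Atpif1: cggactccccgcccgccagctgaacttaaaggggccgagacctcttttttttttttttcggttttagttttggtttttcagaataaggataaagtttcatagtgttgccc
Atp5g2: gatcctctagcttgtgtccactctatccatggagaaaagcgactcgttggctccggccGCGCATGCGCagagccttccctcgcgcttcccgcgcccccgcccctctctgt
Atp5k: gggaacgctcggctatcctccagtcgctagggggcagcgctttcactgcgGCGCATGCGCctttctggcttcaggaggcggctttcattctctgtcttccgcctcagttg
The stretch of Atpif1 holds neither an NRF1 core nor an ETS match and has 43.6% G and C, against 64.6% for Atp5g2 and 61.8% for Atp5k. The relation of these letters to the signals was not tested.

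Iron-binding subunits were set beside the rest because the supplement is an iron salt. The 6 subunits that hold or help to hold an iron cofactor, Sdhb, Sdhc, Sdhd, Uqcrfs1, Cyc1 and Cycs, had a median log2 ratio of 0.11 in HF+SFC over HF, with 5 of 6 above 0. The other 36 members had 0.08, with 28 of 36 above 0. The medians of HF over Control were -0.03 and -0.06. The difference between these sets of genes was not tested.

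Repeated probe sets show how far these ratios can be read. In all, 90 probe sets named a member alone, of which 79 were kept. Of the kept ones 2 lay beyond 1.5-fold in HF+SFC over HF, against 7 of the 11 dim ones, and 5 against 4 in HF over Control. In 25 genes a second kept probe set could be set against the brightest. It gave the same sign in 20 of 25 in HF+SFC over HF and in 19 of 25 in HF over Control, with median differences of 0.055 and 0.071 in size. The widest disagreement was in Uqcrq, whose second kept probe set, at signals of 129 in HF+SFC, 72.9 in HF and 128 in Control, gave 0.83 in HF+SFC over HF where the brightest gave 0.04. For Cox5b a dim probe set at 123 in HF+SFC, 73.6 in HF and 153 in Control gave 0.74 and that of HF over Control -1.06, where the 4 bright ones lay between 0.05 and 0.10 and between -0.19 and 0.02. For Cox8a a probe set below the filter, at 22.4 in HF+SFC, 98.6 in HF and 109 in Control, gave -2.14 in HF+SFC over HF where the brightest gave 0.09. The brightest probe set of 25 of the 42 members has a suffix that marks possible matches to several transcripts.

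**Figure D4:**
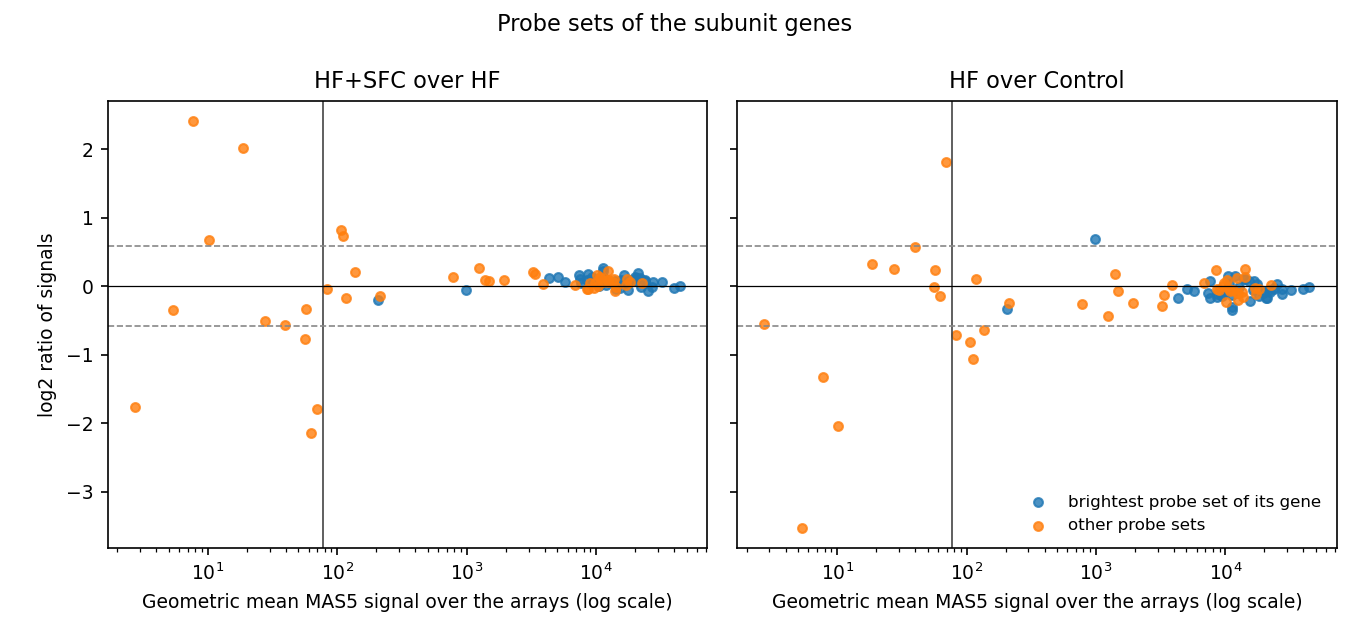
Log2 ratio of HF+SFC over HF and of HF over Control (vertical) against mean signal (horizontal, log scale) for the 90 probe sets of the members, 1 point per probe set, with a vertical line at the filter of 76.9 and dashed lines at 1.5-fold. Points above a signal of 4334 all lie between the dashed lines, and the only brightest probe set of a gene outside them is that of Atpif1 in HF over Control.

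The chain's other parts and its helpers were set beside the members. Complex I, the entry for NADH, had a median log2 ratio of 0.08 in HF+SFC over HF with 28 of 33 kept subunits above 0, and -0.01 in HF over Control, where 1 subunit, Ndufb1, was higher by 1.5-fold. The 29 kept assembly factors, which insert metals and build the complexes, had a median of 0.08 in HF+SFC over HF with 0 beyond 1.5-fold. In HF over Control 3 of 29 rose, Coa6, Atpaf1 and Coa7, and 2 of 29 fell, Sco2 and Sco1, both copper chaperones of complex IV. These counts are near the background of 11.3% higher and 5.84% lower among all kept genes. The largest log2 ratios of HF+SFC over HF among the assembly factors were 0.50 for Sco1, with 465 in HF+SFC, 329.7 in HF and 550.3 in Control, and -0.48 for Coa7, with 949 in HF+SFC, 1326 in HF and 855 in Control. The 11 regulators of mitochondrial genes had a median of 0.07 in HF+SFC over HF with 7 above 0, against 48.8% of all kept genes. In HF over Control their median was -0.16 with 2 of 11 above 0, against 53.1%. The largest log2 ratios of HF+SFC over HF in size among the regulators were -0.52 for Pprc1, 0.46 for Tfb1m and 0.33 for Esrra. Of the other regulators, Ppargc1a, a coactivator of mitochondrial biogenesis, had 571 in HF+SFC, 584 in HF and 424 in Control. Tfam, which packages mitochondrial DNA, had 2648 in HF+SFC, 2336 in HF and 2828 in Control. Slc25a4 and Slc25a5, both ADP/ATP carriers, are among the 6 genes listed for phosphate import and ATP export, with Slc25a3, Vdac1, Vdac2 and Vdac3. Slc25a4 had the largest log2 ratio of HF+SFC over HF in size among the 6, -0.46. Its signals were 397 in HF+SFC, 545 in HF and 308 in Control. Slc25a5 had 24849 in HF+SFC, 24556 in HF and 21927 in Control. Mitochondrial ribosomal proteins had a median of 0.13 in HF+SFC over HF with 59 of 76 above 0, and cytosolic ribosomal proteins, which belong to no mitochondrial process, 0.11 with 38 of 43 above 0. The citric acid cycle without complex II had 0.06 with 10 of 13 above 0. Positive medians of this size were therefore not particular to the respiratory subunits. Other scalings were not run for these lists.

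The arrays also differed in cell type markers. The 10 macrophage markers summed to a signal of 18573 in HF+SFC, 25611 in HF and 18426 in Control, with 4 of 10 lower by 1.5-fold in HF+SFC over HF and 4 of 10 higher in HF over Control. The 8 stellate cell markers summed to 5785.5 in HF+SFC, 9941 in HF and 4350.3 in Control, with 6 lower and 7 higher in the same comparisons. No marker of either list was at 0. The 6 endothelial markers summed to 6884 in HF+SFC, 7628 in HF and 6971 in Control, with 1 lower and 1 higher. Of all kept genes 5.33% were lower by 1.5-fold in HF+SFC over HF and 11.3% higher in HF over Control. Hepatocyte markers summed to 276897 in HF+SFC, 275142 in HF and 291631 in Control, with 0 of 6 beyond 1.5-fold. Ratios of 3′ to 5′ probe sets, a measure of RNA integrity, were 1.73 in HF+SFC, 1.65 in HF and 1.84 in Control for Actb. For Pcx they were 3.89 in HF+SFC, 3.23 in HF and 4.28 in Control. For Gapdh they were 0.708 in HF+SFC, 0.680 in HF and 0.708 in Control. The part of these differences in the lower HF signals of many members was not tested. In liver pieces fewer cells of a type and less RNA per cell cannot be told apart.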

How the data were processed

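Liver total RNA was labelled with biotin, and a mix of the samples of each diet was run on Affymetrix mouse genome GeneChips, 1 array per diet. The deposited values are MAS5 signal intensities, which the authors had scaled so that the 2% trimmed mean of every array was 500.004; the version of MAS5 is not given in the sources used here. Of 45037 probe sets other than 64 controls, 34945 named 1 gene, 932 several and 9160 none in the platform annotation. The log2 ratio of the deposited intensities of a pair of arrays was computed without a pseudocount, for the probe set of highest mean log2 signal of each gene, and genes in the upper 50% were kept. A gene was called at 1.5-fold. With 1 array per group the number of arrays limits the precision, and no test was run.

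The members were chosen by name and not by their values, but they and all lists were chosen with earlier results of these data known. By rule, the text names the 5 highest and 5 lowest members per comparison, iron-binding subunits, members measured by qRT-PCR in the study, Atpif1, c-ring genes, members with any probe set beyond 1.5-fold and up to 3 genes of other lists. Values of further members, Ndufb1, Ppargc1a, Tfam, Slc25a5 and the assembly factors called in HF over Control were added for completeness after they were seen. Promoters came from RefSeq. Alternatives were quantile normalization, median centring, lowess (fraction 0.3), centring on bright genes, a pseudocount of 16, other probe set rules, other filters and thresholds of 1.2-fold and 2-fold. Steps were tested on simulated data. Python 3.11.15 was used with numpy 2.4.6, pandas 2.3.3, scipy 1.17.1, statsmodels 0.14.6 and matplotlib 3.10.9.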

Additional observations from a re-analysis of the deposited data

How the results depend on the processing

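The median log2 ratio of the members in HF+SFC over HF, 0.08 as reported, was 0.0278 under quantile normalization, 0.0994 after median centring, 0.0311 after lowess and 0.0314 after centring on the bright genes, an alternative chosen after seeing the data. That of HF over Control, -0.06 as reported, was 0.0304, -0.0804, 0.0119 and 0.0108 in the same order, and -0.0887 without probe sets of ambiguous suffix. That of HF+SFC over Control, 0.01 as reported, was 0.0647 under quantile normalization, 0.0461 after lowess and 0.0371 after centring on the bright genes. Members above 0 in HF over Control, 11 of 42 as reported, numbered 23, 23 and 22 under these 3 scalings. Without probe sets of ambiguous suffix, which left 30 members, 15 were above 0 in HF+SFC over Control, 2 were higher by 1.5-fold in HF+SFC over HF, 0 were higher and 3 lower in HF over Control, and 0 were higher in HF+SFC over Control, since Atpif1 and many bright probe sets drop out. At 1.2-fold, 1 member was higher in HF+SFC over HF, 3 were lower in HF over Control and 1 was lower in HF+SFC over Control. At 2-fold, 0 were higher in HF over Control and 0 in HF+SFC over Control. The other 95 values of these counts and medians stayed within 1.5 times the reported count, or, for a median, within its standard error as estimated from the SD between probe sets. Among them, members above 0 in HF+SFC over HF, 33 as reported, numbered 26 under quantile normalization and 28 both after lowess and after centring on the bright genes. In HF+SFC over Control, 23 as reported, they numbered 31, 30 and 26 under these scalings, and the median turned to -0.0014 without probe sets of ambiguous suffix. No paired analysis was possible because each group had 1 array. Within the same tolerance were a pseudocount of 16, no filter, and the upper 25% of signal, which left 41 members and a median of -0.0497 in HF over Control.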

Other observations

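Subunit forms that belong to heart and skeletal muscle were measured next to the liver forms. Cox8b, the muscle form of subunit VIII, had a signal of 59.7 in HF+SFC, 9.11 in HF and 8.33 in Control, and Cox6a2, the muscle form of subunit VIa, had 90.02 in HF+SFC, 72.1 in HF and 54.5 in Control. Both were too dim to be kept. The 6 skeletal muscle markers, of which only Acta1 and Actc1 passed the filter of 76.9, were also highest in HF+SFC in every case and summed to 470 in HF+SFC, 206 in HF and 308 in Control. Acta1, skeletal actin, had 138 in HF+SFC, 45.0 in HF and 99.4 in Control, and Myh4, a fast myosin heavy chain below the filter, had 48.2 in HF+SFC, 8.26 in HF and 27.6 in Control. Of the other muscle forms, Cox7a1 had 78.6 in HF+SFC, 103 in HF and 98.3 in Control. The relation of these signals to each other was not tested.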
